A study of Mus musculus with 12 samples.

Results

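The lysyl oxidases and the other enzymes that crosslink collagen were followed in the mouse aorta 3 days after the start of a challenge that leads to aortic dissection. The genes were Lox, Loxl1, Loxl2, Loxl3 and Loxl4 (the lysyl oxidase family), Plod1, Plod2 and Plod3 (the lysyl hydroxylases) and Tgm2 (transglutaminase 2). They were chosen by name among the probes of a 1-colour Agilent array that are not controls, which gave 17 probes for 9 genes. Of these, 16 probes covering all 9 genes were bright enough to test, out of 27801 tested probes for 20026 genes on the whole array. Male C57BL/6J mice aged 11 to 14 weeks were used, and RNA came from a 10 mm length of whole aorta above the right renal artery. DMSO mice were given the vehicle (dimethylsulfoxide) alone, and rapamycin mice received the mTOR inhibitor rapamycin at 2 mg/kg/day in that vehicle. BA+DMSO mice received beta-aminopropionitrile (BAPN) at 150 mg/kg/day and angiotensin II (AngII) at 1 µg/kg/min with the vehicle. BA+rapamycin mice had the same BAPN and AngII together with rapamycin at 2 mg/kg/day. Each group had 3 arrays, all from day 3, and no source says whether an array could hold RNA of more than 1 mouse, so p-values measure the spread between arrays. Titles of the DMSO arrays start with the word Pre, whereas their treatment label is DMSO, and the label was followed.

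Collagen fibres gain their strength from covalent bonds between neighbouring molecules. Inside the cell, the lysyl hydroxylases add hydroxyl groups to lysines of the new collagen chains, and Plod2 is the member that acts on the telopeptides, the chain ends where the bonds start. Outside the cell, the copper-dependent lysyl oxidases turn those lysines, and lysines of elastin, into aldehydes that react into crosslinks. Lox and Loxl1 are the family members most tied to the elastic laminae of arteries. Tgm2 joins glutamine and lysine side chains instead. BAPN blocks the catalytic activity of lysyl oxidases, so the arrays, which read RNA, do not show how active the enzymes were.

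Of the 9 genes, 6 had more than 1 tested probe, and probes of the same gene were not always called alike. Some of the probe sequences are shown, and their part in the calls was not tested. Of the pairs shown, only that of Plod1 had probes that differed in their calls in the fit of all arrays. The probes of Lox, and Loxl2 probe 1 against the other Loxl2 probes, also differed but are not shown. The 3 pairs shown lie in Loxl1, Loxl2 and Plod1, each given 5′ to 3′ as the array files print it, with positions on the mouse build mm9 as the files place them. Each of the 6 has at least 1 forward reading frame free of stop triplets. No exon or intron annotation of that build was used.
Loxl1 probe 1 (chr9:58138570-58138629, minus strand): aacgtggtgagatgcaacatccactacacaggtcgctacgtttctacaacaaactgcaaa
Loxl1 probe 2 (chr9:58145451-58145510, minus strand): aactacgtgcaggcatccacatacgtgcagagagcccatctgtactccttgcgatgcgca
Loxl2 probe 2 (chr14:70090017-70090076, plus strand): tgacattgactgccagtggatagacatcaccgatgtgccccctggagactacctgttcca
Loxl2 probe 3 (chr14:70092141-70092200, plus strand): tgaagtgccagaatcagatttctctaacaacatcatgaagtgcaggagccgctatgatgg
Plod1 probe 1 (chr4:147290037-147291457, minus strand): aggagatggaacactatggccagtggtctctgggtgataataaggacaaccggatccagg
Plod1 probe 2 (chr4:147302568-147302627, minus strand): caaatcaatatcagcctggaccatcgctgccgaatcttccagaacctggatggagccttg

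The 60 bases of Plod1 probe 1 are spread over 1421 bases of the genome, so this probe crosses a splice junction, whereas the other 5 are contiguous. A Plod1 probe 3 (chr4:147290316-147290375), placed between the ends of probe 1, was not well above background on any of the 12 arrays and was left out of the tests. Among the 126 pairs of probes of different genes in the set, the closest pair, of Lox and Loxl1, matched at 31 of 60 bases with a longest shared run of 9. Probes are numbered within a gene from the brightest down, and a gene stands by its probe 1 where 1 value per gene is needed. Levels are log2 of the processed signal relative to the 75th percentile of the same array, and levels of different probes cannot be set against each other.

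All 16 tested probes were well above background on all 12 arrays. The challenged arrays were dimmer, with a 75th percentile of processed signal of 78.1 to 246 intensity units for BA+DMSO and 74.6 to 109 for BA+rapamycin, against 221 to 280 for DMSO and 257 to 337 for rapamycin. Correlations across probes between arrays of a group were 0.987 to 0.993 without the challenge, 0.974 to 0.982 in BA+rapamycin and 0.912 to 0.961 in BA+DMSO. Smooth muscle markers fit the labelled tissue: all 6 were well above background on every array. The 3 DMSO arrays and rapamycin replicate 1 lay on slide 1 and the other 8 arrays on slide 2. For BA+DMSO against DMSO, slide and challenge therefore cannot be told apart.

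**Figure D1:**
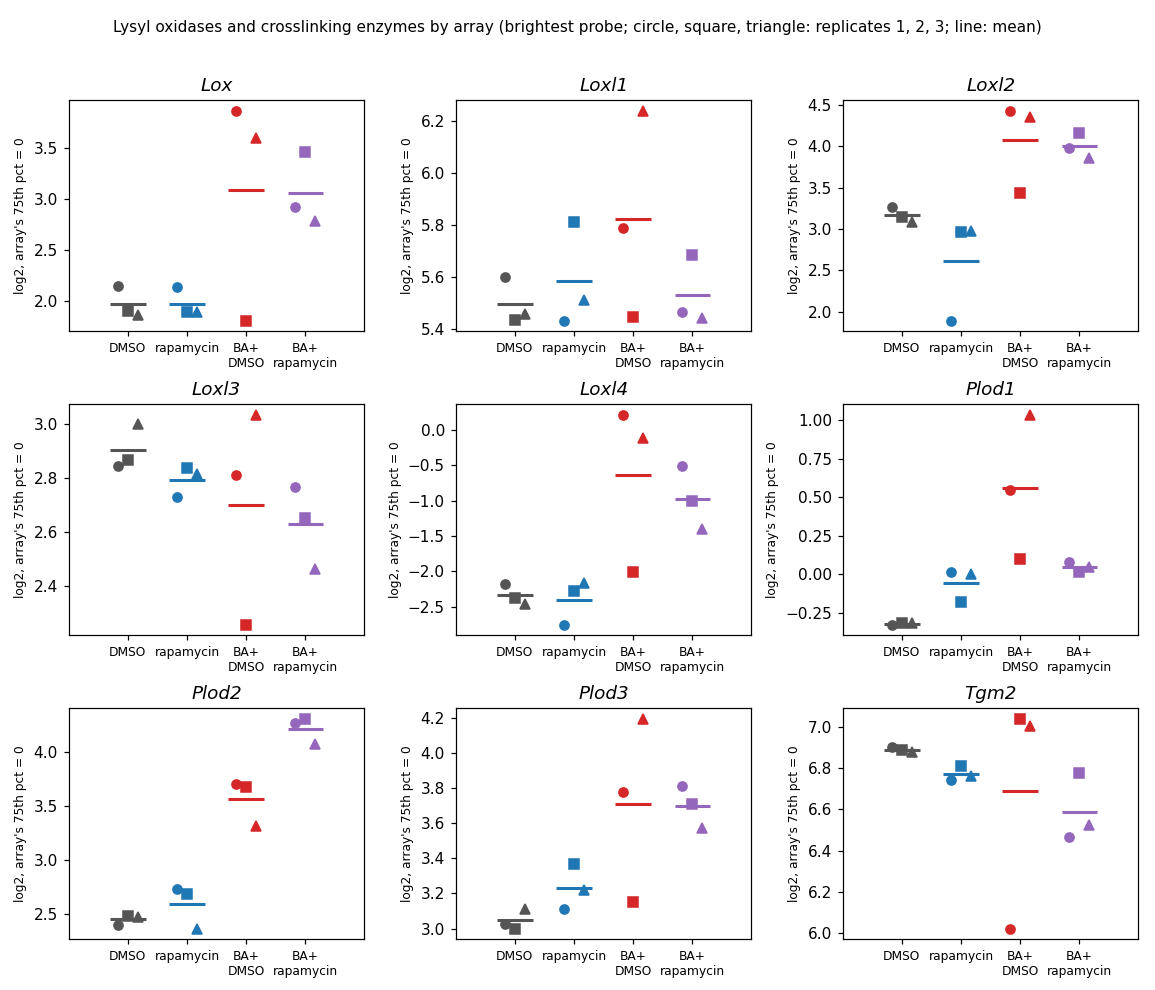
Level of each gene's probe 1 on the 12 arrays (log2 relative to the array's 75th percentile, a separate scale in each panel), by group, with a marker for each replicate and a line at the group mean. Plod2 stands higher in both challenged groups on all arrays, and BA+DMSO replicate 2 lies below the other BA+DMSO replicates for Lox, Loxl2 and Loxl4.

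The first question was how the challenge changed these genes in mice given only the vehicle. Lox, Loxl2, Loxl4, Plod1 and Plod2 each had at least 1 probe that rose in BA+DMSO against DMSO, by 1.84- to 5.44-fold. Loxl1, Loxl3, Plod3 and Tgm2 had no probe that passed the test. In all, 7 of 16 probes rose and 0 fell, whereas 9.65% of all tested probes rose. By probe 1, 3 of 9 genes rose (Loxl4, Plod1 and Plod2) and 0 fell, beside 21.4% of all genes that changed in either direction and 10.4% that rose. The median log2 difference of the 9 genes was 0.88, against -0.02 over all tested genes. By probe 1 the groups did not overlap for 5 of 9 genes. The same held for 4 of 9 in rapamycin against DMSO, where 0 of the 9 were called. The share over all genes was not counted, so separate groups below only describe the levels. In whole tissue, a change in the number of cells of a type and a change in RNA per cell cannot be told apart.

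Lox, the founding lysyl oxidase, stood high in both challenged groups except on 1 array. For probe 1, levels were 2.14, 1.89 and 1.85 in DMSO and 3.86, 1.80 and 3.60 in BA+DMSO. BA+DMSO replicate 2 was as low as DMSO, so the groups overlapped, and the log2 difference of 1.12 ± 0.43 (SE) did not pass the test (adjusted p = 0.0905). Without that array the log2 difference was 1.77 and passed the test. Lox probe 2 gave 1.76, 1.49 and 1.50 in DMSO and 3.06, 2.12 and 3.10 in BA+DMSO. Here the groups did not overlap, and the level rose by 1.18 ± 0.28 on the log2 scale (2.26-fold, adjusted p = 0.0152). The call was lost without DMSO replicate 2, DMSO replicate 3 or BA+DMSO replicate 1 (adjusted p = 0.0529 to 0.0644). The estimates of both probes lay within 1 SE of each other, and they differed in the spread that replicate 2 added.

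Loxl2, which also acts on the collagen IV of basement membranes, had 3 tested probes that gave nearly the same size of change. Probe 3 read 0.30, -0.16 and -0.19 in DMSO and 1.23, 0.52 and 1.39 in BA+DMSO. Probe 1 read 3.27, 3.15 and 3.08 in DMSO and 4.43, 3.44 and 4.35 in BA+DMSO. The groups were separate for all 3 probes, and BA+DMSO replicate 2 was the lowest of its group each time. Probe 2 and probe 3 both rose by 1.07 on the log2 scale (2.09-fold, adjusted p = 0.0176 and 0.0141), while probe 1 gave 0.91 ± 0.32 with an adjusted p of 0.0687. Probes 2 and 3 lost their calls without DMSO replicate 2, DMSO replicate 3 or BA+DMSO replicate 1 (adjusted p = 0.0527 to 0.0783), so that no Loxl2 probe was called in those fits.

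Loxl4 showed the largest differences of the set. Probe 2 levels were -2.54, -3.30 and -3.19 in DMSO and -0.01, -1.71 and 0.02 in BA+DMSO. This was a rise of 2.44 ± 0.45 on the log2 scale (5.44-fold, adjusted p = 0.00472), with no overlap between groups. The gene was dim. Before scaling, probe 2 had 48.2, 27.0 and 24.3 intensity units in DMSO and 131, 23.9 and 250 in BA+DMSO. The part of the scaling in the size for probe 2 was not tested. Probe 1 read -2.17, -2.37 and -2.46 in DMSO and 0.21, -2.01 and -0.12 in BA+DMSO. Its rise of 1.70 ± 0.48 (3.24-fold, adjusted p = 0.0304) rested on replicates 1 and 3, since replicate 2 lay only just above DMSO. Without BA+DMSO replicate 2 the log2 difference was 2.38. The call of Loxl4 probe 1 was lost when any DMSO array, BA+DMSO replicate 1 or BA+DMSO replicate 3 was left out. It was also lost under quantile normalization, in the authors' deposited matrix, with no filter on dim probes, with the slide as a fixed term, with the title date as a fixed term (a fit that leaves BA+DMSO with 1 array), and in a fit of only the groups compared.

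Loxl1 and Loxl3 did not pass the test. Loxl1 probe 1 was at 5.60, 5.44 and 5.46 in DMSO and 5.79, 5.45 and 6.24 in BA+DMSO, a log2 difference of 0.33 (95% interval -0.13 to 0.78, adjusted p = 0.289). Loxl1 probe 2 gave 0.02 (95% interval -0.76 to 0.81). For Loxl3, levels of 2.84, 2.87 and 3.00 in DMSO and 2.81, 2.26 and 3.03 in BA+DMSO gave -0.20 (95% interval -0.64 to 0.24, adjusted p = 0.5). In each of these cases the groups overlapped, and the intervals of Loxl1 probe 1 and Loxl3 leave no room for a doubling.

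Among the lysyl hydroxylases, Plod2 had the change least affected by single arrays. Its levels were 2.40, 2.48 and 2.47 in DMSO and 3.70, 3.68 and 3.31 in BA+DMSO. All 3 BA+DMSO arrays were above all DMSO arrays, and the rise was 1.11 ± 0.17 on the log2 scale (2.16-fold, adjusted p = 0.00198). BA+DMSO replicate 2, low for Lox and Loxl4, was not low for Plod2. Plod1, which hydroxylates lysines of the collagen helix, had probe 1 at -0.33, -0.32 and -0.32 in DMSO and 0.55, 0.10 and 1.03 in BA+DMSO. The groups were separate and the level rose by 0.88 ± 0.21 (1.84-fold, adjusted p = 0.0158), but the call was lost without DMSO replicate 2 or DMSO replicate 3. Plod1 probe 2, with -1.33, -1.79 and -1.16 in DMSO and -0.99, -0.93 and -0.75 in BA+DMSO, gave 0.54 ± 0.21. It did not pass the test (adjusted p = 0.0875) although its groups were separate. Plod3, which also adds sugars to hydroxylysine, read 3.03, 3.00 and 3.11 in DMSO and 3.78, 3.15 and 4.20 in BA+DMSO. These groups did not overlap either, yet the log2 difference of 0.66 ± 0.23 missed the threshold (adjusted p = 0.0658).

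Tgm2 was bright and nearly level apart from 1 array. Probe 1 was at 6.90, 6.89 and 6.88 in DMSO and 6.02, 7.04 and 7.01 in BA+DMSO, a log2 difference of -0.20 (95% interval -0.74 to 0.34, adjusted p = 0.596). BA+DMSO replicate 1 was the low array for both Tgm2 probes. On that array the score of the smooth muscle markers, the median log2 difference of the list from the DMSO mean, was -1.20, against 0.42 and -0.23 on BA+DMSO replicates 2 and 3. The part of the smooth muscle content in the Tgm2 value was not tested.

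These counts depended on single arrays and on the slide. The number of rising probes was 10 of 16 without BA+DMSO replicate 2 (13.6% of all probes rose in that fit), 3 without BA+DMSO replicate 1 (5.88%) and 2 without DMSO replicate 2 (4.16%) or DMSO replicate 3 (5.78%). With the slide as a fixed term, which then rests on the 3 rapamycin arrays alone, 0 of 16 probes were called, as were 0.054% of all probes. In that fit the log2 difference of Plod2 was 1.33 and that of Lox probe 1 was 1.36, while Loxl2 probe 1 turned to -0.17.

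**Figure D2:**
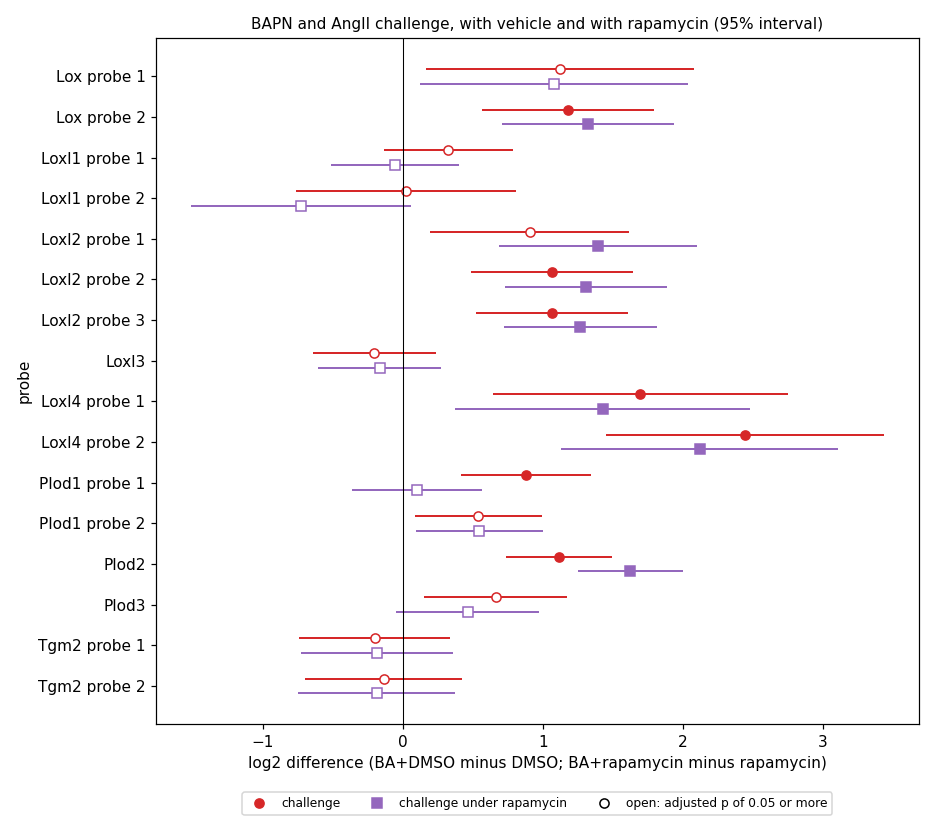
Log2 difference of each tested probe with its 95% interval, for BA+DMSO minus DMSO (circles) and BA+rapamycin minus rapamycin (squares). Filled markers, at Lox, Loxl2, Loxl4, Plod1 and Plod2, had an adjusted p under 0.05 and all lie to the right of 0.

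The same challenge was then compared in mice that received rapamycin, using arrays that do not enter the first comparison except through the spread estimated over all 12. Lox, Loxl2, Loxl4 and Plod2 had at least 1 probe that rose in BA+rapamycin against rapamycin. As before, 7 of 16 probes rose and 0 fell, beside 18.9% of all tested probes that rose. Of the 7 probes called in each comparison, 6 were called in both. How many of all tested probes were called in both was not counted, so this overlap does not set the genes apart from the array. By probe 1, 3 of 9 genes rose (Loxl2, Loxl4 and Plod2), beside 42.7% of all genes that changed in either direction and 19.8% that rose, so by gene the set did not stand clearly apart from the array. The median log2 difference of the 9 genes was 0.46, against -0.07 over all tested genes.

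Plod2 had the smallest p-value of the set. It was at 2.73, 2.68 and 2.36 in rapamycin and at 4.27, 4.31 and 4.07 in BA+rapamycin. The challenged arrays stood well above the others, by 1.62 ± 0.17 on the log2 scale (3.08-fold, adjusted p = 0.000184), and within slide 2 alone (3 arrays against 2) the difference was 1.70. Loxl2 probe 1 was at 1.89, 2.96 and 2.98 in rapamycin and 3.98, 4.16 and 3.86 in BA+rapamycin. It rose by 1.39 ± 0.32 (2.62-fold, adjusted p = 0.00753), although rapamycin replicate 1, the only rapamycin array on slide 1, was low, and within slide 2 the difference was 1.03. The arrays of these groups share no title date, and with the date as a fixed term the call was lost (0.75, adjusted p = 0.0898). The other Loxl2 probes rose by 1.31 and 1.27, with adjusted p-values of 0.00407 and 0.00364.

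Loxl4 probe 2 read -3.43, -2.21 and -2.98 in rapamycin and -0.77, -0.84 and -0.66 in BA+rapamycin, a rise of 2.12 ± 0.45 (4.34-fold, adjusted p = 0.00525). Plod1 probe 3, well above background on no array, also read higher in BA+rapamycin (mean -4.58) than in rapamycin (-6.02). Before scaling, Loxl4 probe 2 had only 23.8, 58.5 and 42.8 intensity units in rapamycin and 64.1, 41.8 and 68.1 in BA+rapamycin. Probe 1 of this gene rose by 1.43 ± 0.48 (2.69-fold, adjusted p = 0.0347), but its call was lost without any single rapamycin array, without BA+rapamycin replicate 1 or 2, under quantile normalization, in the deposited matrix, and with the slide or the title date as a fixed term. Lox probe 2 was at 1.69, 1.69 and 1.20 in rapamycin and 2.83, 3.17 and 2.55 in BA+rapamycin, up by 1.32 ± 0.28 (2.50-fold, adjusted p = 0.00512). For Lox probe 1 the arrays were at 2.13, 1.89 and 1.89 in rapamycin and 2.92, 3.46 and 2.78 in BA+rapamycin. The groups were separate, yet the log2 difference of 1.08 ± 0.43 missed the threshold (adjusted p = 0.0655).

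The remaining genes did not pass the test. Plod1 probe 1 was at 0.01, -0.18 and 0.00 in rapamycin and 0.08, 0.01 and 0.04 in BA+rapamycin, a log2 difference of 0.10 (95% interval -0.36 to 0.56). Plod1 probe 2 was at -1.52, -1.49 and -1.32 in rapamycin and -0.79, -0.68 and -1.22 in BA+rapamycin, a difference of 0.55 (adjusted p = 0.053). The junction probe of Plod1 lay near 0 here, and the difference between the 2 probes was not tested. Plod3 gave 0.46 (95% interval -0.05 to 0.98), Loxl3 gave -0.17 and Tgm2 probe 1 gave -0.18. Loxl1 probe 1 gave -0.05 (95% interval -0.51 to 0.40), whereas probe 2 was lower on all 3 BA+rapamycin arrays (2.56, 2.92 and 2.66 against 3.22, 3.47 and 3.63) by a log2 difference of -0.73 (95% interval -1.51 to 0.06, adjusted p = 0.118). With the slide as a fixed term, 6 of 16 probes were called (all but Loxl4 probe 1 of the 7) and 13.1% of all probes rose. Leaving out 1 array at a time, the number of rising probes ranged from 6 to 10, while 10.8% to 25.6% of all probes rose. Loxl1 probe 2 was called lower without BA+DMSO replicate 2 (adjusted p = 0.0214) or BA+DMSO replicate 3 (adjusted p = 0.0283), which are not among the arrays compared.

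Rapamycin itself was examined with and without the challenge. No probe of the 9 genes passed the test for BA+rapamycin against BA+DMSO: limma called 0 of 16, beside 0.281% of all probes. An unadjusted p under 0.05 was reached by 5585 of all 27801 probes and by 2 of the 16. Those 2 were Plod2 and Plod1 probe 1, and they lay in opposite directions. Plod2 was at 3.70, 3.68 and 3.31 in BA+DMSO and 4.27, 4.31 and 4.07 in BA+rapamycin. The groups did not overlap, and the log2 difference was 0.65 (95% interval 0.28 to 1.03, adjusted p = 0.108). For Plod1 probe 1, the levels of 0.55, 0.10 and 1.03 in BA+DMSO and 0.08, 0.01 and 0.04 in BA+rapamycin gave -0.52 (95% interval -0.98 to -0.05, adjusted p = 0.221). For the other 14 probes the 95% interval included 0. The interval of Lox probe 1 ran from -0.99 to 0.92 and that of Loxl4 probe 1 from -1.39 to 0.72, so changes of nearly 2-fold in either direction for Lox probe 1, and larger falls for Loxl4 probe 1, lie within these intervals.

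The calls in this comparison depended on BA+DMSO replicate 2, for these genes and over the whole array. That replicate was the lowest BA+DMSO array for 12 of the 16 probes, not for Plod1 probe 2, Plod2 or the 2 probes of Tgm2. The share over all tested probes was not counted. On BA+DMSO replicate 2 the macrophage marker score was 1.19, against 3.01 and 2.25 on BA+DMSO replicates 1 and 3 and 1.82 to 1.94 in BA+rapamycin. Other scores of this array also stood apart from those of replicates 1 and 3. Smooth muscle (0.42 against -1.20 and -0.23) and adipocyte (3.18 against 1.87 and 0.79) were higher, and fibroblast (-0.27 against 1.18 and 0.48) was lower. Its 75th percentile of signal was 78.1 against 132 and 246. The part of these in its low values was not tested. Without this array, limma called 5 of the 16 probes for BA+rapamycin against BA+DMSO, while 39.9% of all tested probes were called in that fit. Plod2 was then higher in BA+rapamycin by 0.71 (adjusted p = 0.011). Plod1 probe 1 (-0.75), Lox probe 1 (-0.68), Loxl4 probe 1 (-1.02) and Loxl1 probe 2 (-1.08) were lower, with adjusted p-values from 0.00681 to 0.0301. Without any other single array 0 of the 16 were called.

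**Figure D3:**
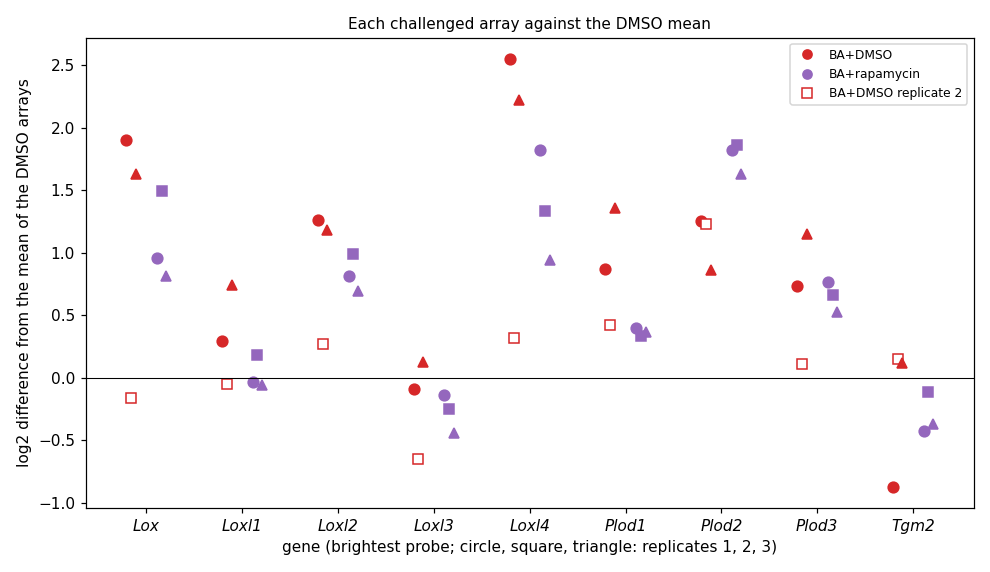
Log2 difference of each challenged array from the mean of the 3 DMSO arrays, for probe 1 of each gene, with BA+DMSO replicate 2 as an open square. That array lies near 0 for Lox (-0.16) and Loxl4 (0.32) but beside the other BA+DMSO arrays for Plod2 (1.23).

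For rapamycin against DMSO without the challenge, limma called 0 of the 16 probes, beside 0.0036% of all probes. An unadjusted p under 0.05 was reached by 0 of the 16, beside 1187 of all 27801 probes. Lox probe 1 differed by 0.01 (95% interval -0.95 to 0.96) and Plod2 by 0.14 (95% interval -0.23 to 0.52). The widest gap was at Loxl2 probe 1 (-0.56, 95% interval -1.27 to 0.15), where rapamycin replicate 1 was low. Whether the challenge acted differently with rapamycin was tested as an interaction, and 0 of the 16 probes passed, as did 0% of all probes. An unadjusted p under 0.05 was reached by 1702 of all 27801 probes and by 1 of the 16. This was Plod1 probe 1 (-0.78 ± 0.30, adjusted p = 0.737), which rose in the vehicle groups and lay near 0 in the rapamycin groups. Without BA+DMSO replicate 2 its interaction was -1.01 (adjusted p = 0.0333), the 1 call among the 16 probes in a fit that called 11% of all probes. Plod1 probe 2 gave 0.01 (95% interval -0.64 to 0.65), which overlaps the interval of probe 1 (-1.44 to -0.13). The difference between the 2 probes of this gene was not tested. For Plod2 the interaction was 0.51 (95% interval -0.02 to 1.04).

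**Figure D4:**
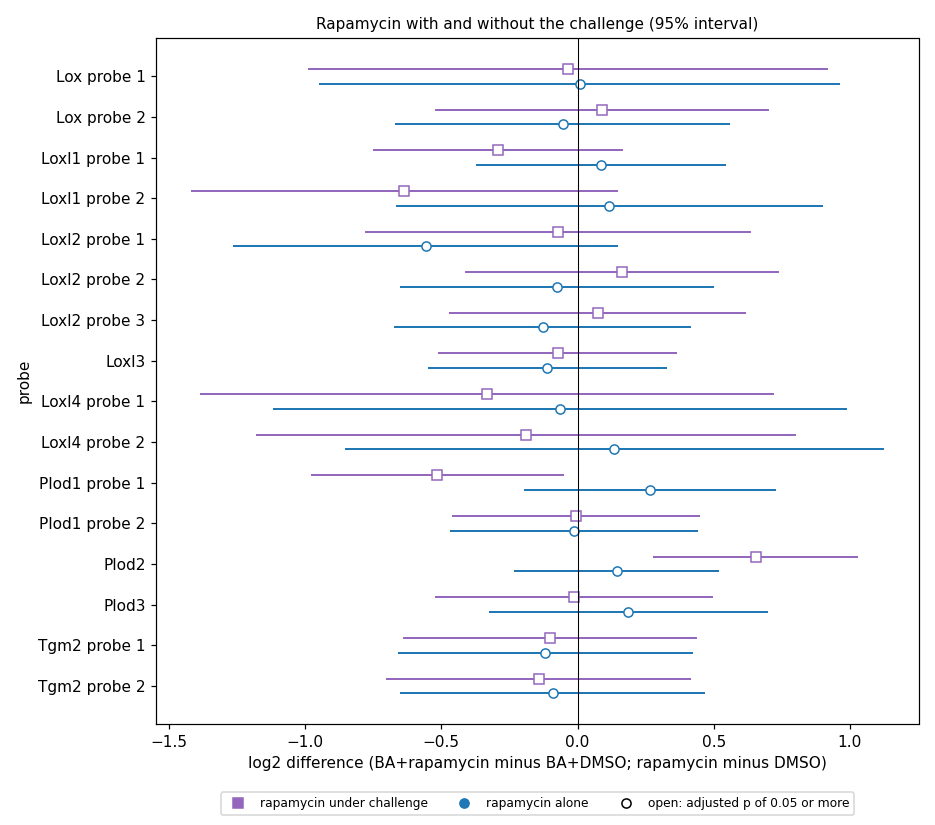
Log2 difference of each tested probe with its 95% interval, for BA+rapamycin minus BA+DMSO (squares) and rapamycin minus DMSO (circles). Every marker is open (adjusted p of 0.05 or more), and only the squares of Plod2 (0.65) and Plod1 probe 1 (-0.52) have intervals that leave out 0.

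Across the 4 groups, Plod2 had the order DMSO (2.45 ± 0.05, mean ± SD of 3 arrays), rapamycin (2.59 ± 0.20), BA+DMSO (3.56 ± 0.22) and BA+rapamycin (4.22 ± 0.13). The first pair of neighbours in this order overlapped and the last pair did not, though their difference missed the threshold. Lox probe 1 had the order DMSO (1.96 ± 0.15), rapamycin (1.97 ± 0.14), BA+rapamycin (3.05 ± 0.36) and BA+DMSO (3.09 ± 1.12). Neighbours at both ends of that order differed by less than their spread. Over the 12 arrays, the SD of the genes' levels ran from 0.22 for Loxl3 to 1.00 for Loxl4.

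The genes whose profile over the 12 arrays was closest to each member, among 10503 genes well above background throughout, were found by the root-mean-square difference of mean-centred log2 levels. For Lox these were Tpm4 (a tropomyosin), Glipr2 and Rassf5, at 0.16, 0.25 and 0.26. Closest to Plod2 was Gpsm3 (0.16), to Loxl2 Gmppb (0.22), to Loxl4 Mlec (0.30) and to Plod1 Lman2 (0.13), a cargo receptor of the secretory pathway. Closest to Plod3 was Sh3gl1 (0.07), to Loxl1 Crcp (0.10) and to Loxl3 Rnaseh1 (0.10). Tgm2 was closest to Cnn1 (0.11), the smooth muscle calponin and one of the smooth muscle markers used here. A small difference is easier to reach for genes that hardly varied, so these values do not rank the members.

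Other genes of collagen crosslinking were taken from 6 lists: substrates, activation and copper supply of lysyl oxidase, partners of the lysyl hydroxylases, prolyl hydroxylation, other transglutaminases and known inducers. Of their 50 genes 42 had a tested probe. In BA+DMSO against DMSO 14 rose and 2 fell, beside 10.4% of all genes that rose and 21.4% that changed in either direction, with a median log2 difference of 0.50 against -0.02 over all genes. Of the fibrillar collagens and elastin, 4 of 8 rose, among them the main collagen chains of the artery wall, Col1a1 (0.99 ± 0.26, 1.99-fold, adjusted p = 0.0243) and Col3a1 (0.85 ± 0.25, adjusted p = 0.035), as well as Col5a1 (0.76 ± 0.22, adjusted p = 0.0327). Of the partners of lysyl hydroxylation and collagen glycosylation, 4 of 6 rose. They included Fkbp10, a prolyl isomerase that Plod2 needs for full activity (0.99 ± 0.15, adjusted p = 0.00208), Serpinh1, the collagen chaperone Hsp47 (0.84 ± 0.14, adjusted p = 0.00329), and Ppib, cyclophilin B (0.70 ± 0.20, adjusted p = 0.0287). Fkbp10 was at 5.92, 5.98 and 5.89 in DMSO and at 6.92, 6.84 and 6.99 in BA+DMSO. Like Plod2, it was separate on all arrays and not low on BA+DMSO replicate 2.

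In the activation and copper list 3 of 12 rose: Pcolce, an enhancer of the protease that trims procollagen (1.31 ± 0.24, adjusted p = 0.00421), the copper importer Slc31a1 (0.81 ± 0.17, adjusted p = 0.00873) and the copper chaperone Atox1 (0.78 ± 0.17, adjusted p = 0.0106). Of the prolyl hydroxylases and their partners 1 of 7 rose, Lepre1, a collagen prolyl 3-hydroxylase (0.89 ± 0.18, adjusted p = 0.00787). Of 3 other transglutaminases, F13a1, the factor XIII A subunit that macrophages also make, rose by 1.43 ± 0.38 (adjusted p = 0.0252). Among 6 known inducers Tgfb1 rose (0.81 ± 0.23, adjusted p = 0.0328), whereas Tgfb3 fell by 0.66 ± 0.21 (adjusted p = 0.0474) and Epas1, which encodes a hypoxia-inducible factor, fell by 0.97 ± 0.25 (adjusted p = 0.0215). The total of 16 called genes dropped to 0 with the slide as a fixed term (0.0599% of all genes called) and to 7, 5, 6 and 7 without DMSO replicate 1, 2 or 3 or BA+DMSO replicate 1 (12.6%, 7.87%, 11.7% and 11.9% of all genes). Without each array in turn, Fkbp10, Serpinh1, Pcolce, Slc31a1 and Lepre1 kept their calls. Col1a1, Col3a1, Col5a1, Ppib, Epas1, Tgfb1 and Tgfb3 lost theirs without any 1 DMSO array or BA+DMSO replicate 1 (all but the first, Ppib and Epas1 also without some other arrays), F13a1 without DMSO replicate 2, DMSO replicate 3 or BA+DMSO replicate 1, and Atox1 without DMSO replicate 2.

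In BA+rapamycin against rapamycin 17 of the 42 rose and 4 fell, beside 19.8% of all genes that rose and 42.7% that changed in either direction (median 0.48 against -0.07 over all genes). With the slide as a fixed term 16 were called, beside 29.2% of all genes. Without single arrays the total ranged from 14 (without rapamycin replicate 3, 24.2% of all genes) to 28 (without BA+DMSO replicate 2, 58.3% of all genes). Of the substrates 6 of 8 rose, by 1.57 ± 0.26 for Col1a1 (2.98-fold, adjusted p = 0.0018), 1.48 ± 0.25 for Col3a1 and 1.25 ± 0.33 for Col5a3, whose call was lost without rapamycin replicate 3. Fkbp10 (1.20 ± 0.15, adjusted p = 0.000495) and Serpinh1 (0.89 ± 0.14, adjusted p = 0.00151) were 2 of 6 partners that rose. In the activation list 5 of 12 rose and 3 fell. Bmp1, the protease that trims procollagen and the Lox propeptide, rose by 1.20 ± 0.25 (adjusted p = 0.00436). Fmod, fibromodulin, a collagen-binding proteoglycan that also binds Lox, was at 1.96, 2.46 and 2.87 in rapamycin and -0.05, -0.24 and 0.05 in BA+rapamycin. It fell by 2.51 ± 0.40 on the log2 scale (adjusted p = 0.00145), the largest change in the lists, although it was also low in part of the DMSO group (2.00, 1.04 and 0.56). In BA+DMSO it was at 2.07, 1.02 and 2.22, and the challenge without rapamycin gave a log2 difference of 0.57 (95% interval -0.31 to 1.45, adjusted p = 0.337). The interaction did not pass the test (adjusted p = 0.417). Fbln5, fibulin-5, which guides elastin assembly and binds Loxl1, fell by 1.35 ± 0.25 (adjusted p = 0.0026).

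Among the rest, P4ha3, a catalytic subunit of prolyl 4-hydroxylase, rose by 1.50 ± 0.28 (adjusted p = 0.00298) and Lepre1 by 0.90 ± 0.18 (adjusted p = 0.00412), 2 of 7 in their list. Of 3 other transglutaminases 1 was called higher, Tgm4, a dim probe at -3.18, -4.02 and -3.58 in rapamycin and -2.79, -2.02 and -2.04 in BA+rapamycin (adjusted p = 0.00773). Only 2 of its 3 BA+rapamycin arrays were well above background, and Plod1 probe 3, well above background on no array, also read higher in BA+rapamycin (mean -4.58) than in rapamycin (-6.02), so no size is given for Tgm4. Of 6 inducers Epas1 fell by 1.51 ± 0.25 (adjusted p = 0.00173) and Tgfb1 rose by 0.67 ± 0.23, with an adjusted p of 0.0411 that was lost with the slide as a fixed term and without 7 of the single arrays. For BA+rapamycin against BA+DMSO limma called 0 of the 42 genes, beside 0.305% of all genes, and 15 without BA+DMSO replicate 2, where 41% of all genes were called.

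**Figure D5:**
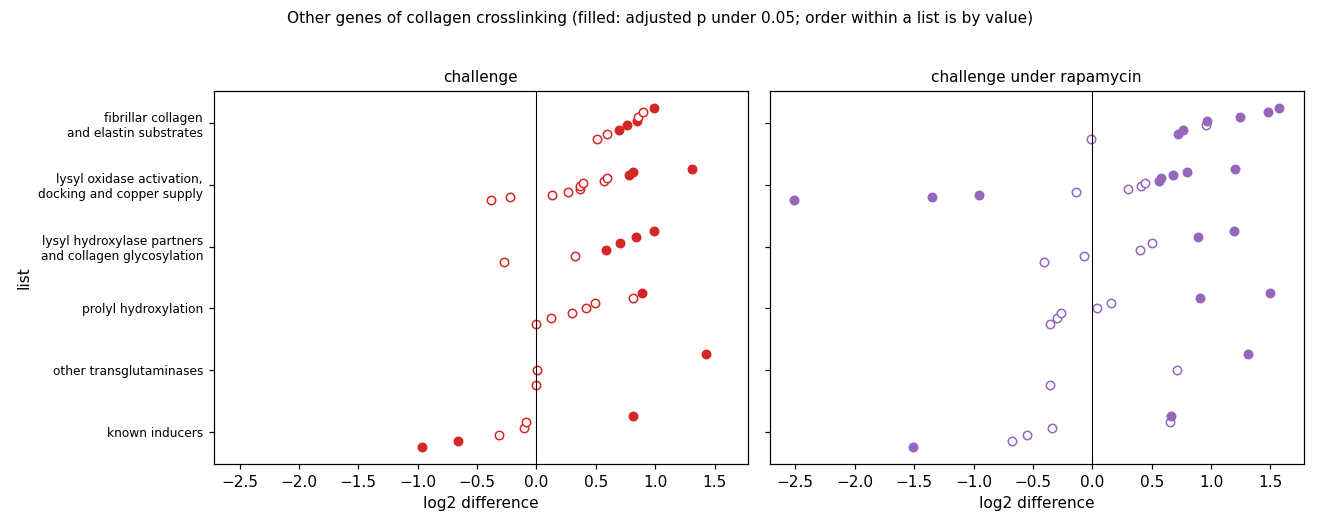
Log2 difference of each tested gene in the 6 lists, for BA+DMSO minus DMSO (left) and BA+rapamycin minus rapamycin (right), with filled markers for an adjusted p under 0.05. Substrates and hydroxylase partners lie mostly to the right of 0, and Fmod is the farthest to the left (-2.51) under rapamycin.

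Markers of other cells moved with the challenge. Their counts stand beside 10.4% of all genes that rose and 21.4% that changed in BA+DMSO against DMSO, and 19.8% and 42.7% in BA+rapamycin against rapamycin. All 6 macrophage markers rose in BA+DMSO against DMSO and 4 of 6 in BA+rapamycin against rapamycin, with scores of -0.52 to 0.61 (DMSO), 0.31 to 0.74 (rapamycin), 1.19 to 3.01 (BA+DMSO) and, for BA+rapamycin, 1.82 to 1.94. The summed macrophage level, relative to the 75th percentile, ran from 20.7 to 36.7 on DMSO arrays, 33.6 to 41.8 on rapamycin arrays, 56.9 to 144 on BA+DMSO arrays and 86.7 to 91.4 on those of BA+rapamycin. Of the fibroblast markers 0 of 6 were called for BA+DMSO against DMSO (summed level 436 to 718 against 560 to 1004) and 1 of 6 rose for BA+rapamycin against rapamycin. Of the smooth muscle markers 1 of 6 fell for BA+DMSO, and for BA+rapamycin 1 rose and 1 fell. Of the mesothelium markers 2 of 3 rose for BA+DMSO, and of 5 endothelial markers 2 rose. Neutrophil, lymphocyte and adipocyte markers each had 1 that rose, of 3, 3 and 4 tested, and striated muscle had 0 of 3. For BA+rapamycin against rapamycin 1 endothelial marker rose and 1 fell, 1 lymphocyte marker rose, 1 striated muscle marker fell, and 0 mesothelium, neutrophil and adipocyte markers were called. The markers Retnlg (neutrophil) and Myh4 (fast skeletal muscle) were not bright enough to test. The part of these cell types in the levels of the crosslinking enzymes was not tested.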

How the data were processed

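Total RNA from mouse aorta was labelled with Cy3 and hybridised by the authors to 12 1-colour Agilent mouse arrays. Per the file headers, Agilent Feature Extraction read the images, in version 10.7.1.1 (9.5.1.1 in the submitters' processing notes). The deposited processed signal is an intensity on a linear scale, background-subtracted and detrended within each array, and not normalized between arrays. The deposited flags of 0 or 1 (other columns) mark spots that are well above background, saturated or outliers. No spot was saturated. Detrending and scaling to 1 percentile can shift dim arrays, which is why other scalings were tried.

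Groups came from the treatment labels. The log2 processed signal, without outlier spots, was averaged per probe, and each array's 75th percentile was subtracted. Tests were limited to probes detected in some group, meaning that a share of 0.5 or more of the probe's spots carried the flag for signal above background on each of its 3 arrays. All 12 arrays entered 1 limma 3.58.1 model (R 4.3.3) with a mean per group. Tests were two-sided, and p-values were adjusted by Benjamini-Hochberg over all 27801 probes of each contrast, with calls at an adjusted p under 0.05. The script was tested on simulated data. The number of arrays limits the precision. Intervals are 95% and not adjusted for multiple tests.

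The 9 genes, the lists and the tests were chosen with earlier results of these data known. Named were all 9 genes, up to 3 called genes of each pathway list with the largest change in each challenge contrast, and the genes with the closest profile (3 for Lox, 1 for each other). Alternatives were other scalings (quantile, or the percentile over detected probes), normexp background correction, the authors' deposited matrix of normalized intensity, other filters, the slide or title date as a block, only the groups compared, the mean over a gene's probes, the methods' rule (a fold change above 4 or below 0.25 with an unadjusted p under 0.01) and leaving out each array. List counts without each array and with the slide term, and probe counts with the slide term, were added after seeing the data.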

Additional observations from a re-analysis of the deposited data

How the results depend on the processing

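By probe 1, 3 of the 9 genes were called for the challenge, beside 21.4% of all genes. Each count below is followed by that share of all genes in the same fit. The count was 5 with the percentile over detected probes (22.4%), 5 with the mean over a gene's probes (21.3%), 6 with the slide as a random block (37.8%, consensus correlation -0.13), 1 with the title date as a block (Lox, 5.96%; BA+DMSO then has 1 array, assumed to vary like the other groups, so this says little about the challenge), 1 in a fit of only the groups compared (Plod2, 4.78%), 0 with the slide as a fixed block (0.0599%), 0 by the methods' rule (2.83%), and 1 to 6 without single arrays (1 without DMSO replicate 2, 7.87%, or DMSO replicate 3, 11.7%, and 6 without BA+DMSO replicate 2, 28.4%). For the challenge under rapamycin the count of 3 (42.7%) became 5 with the percentile over detected probes (42.8%), 5 in a fit of only the groups compared (57.8%), 1 with the title date (Plod2, 12.7%), 0 by the methods' rule (5.43%), and 2 to 5 without single arrays (24.2% to 58.3%). For rapamycin under challenge it was 0 to 4, and for the interaction 0 to 1, without single arrays, the highest without BA+DMSO replicate 2 (41% and 11.2% of all genes). The causes were not tested, except that the date fit left out BA+DMSO replicates 2 and 3, whose titles carry no date, and the slide term rests on the rapamycin group. The 6 called values changed sign in 0 of 138 trials and kept their calls in 110, Plod2 under rapamycin in 23 of 23. The 39 others kept their side of the threshold in 862 of 897 trials, with 77 sign changes. Quantile normalization moved the median of all probes for the challenge under rapamycin from -0.08 to -0.18, and the percentile over detected probes to 0.10. With DMSO and rapamycin arrays 2 and 3 paired by the number in their titles (replicate block), 0 of the 9 genes were called for rapamycin alone, beside 18 of all genes (0.0899%, against 1 gene in the fit of all 12 arrays); deviations of same-numbered arrays correlated at 0.17 and -0.35, and all 4 arrays carry the same title date.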
